A study of Caenorhabditis elegans with 2 samples.

Results

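The ceh genes are homeobox genes of the nematode Caenorhabditis elegans, and binding of the transcription factor DPL-1 beside them was read from ChIP-seq peaks of first-stage (L1) larvae. The members were all protein-coding genes whose Ensembl symbol on assembly WBcel235 begins with ceh-, which were 63 of 19973 nuclear protein-coding genes. Genes were taken in by name alone and by no measured value, though the family was chosen with earlier results of these data known. Of the 63 genes, 4 had a peak of the authors' reproducible list with its summit in the promoter. Those were ceh-38, ceh-39, ceh-83 and ceh-93. A further 7 genes, ceh-5, ceh-8, ceh-20, ceh-21, ceh-88, ceh-92 and ceh-100, had such a summit only in the gene body or within 2 kb upstream of the gene.

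Homeobox genes code for transcription factors that bind DNA through a homeodomain, and in the worm they are best known for fixing the identity of cells, above all of neurons. Many are active in few cells. DPL-1 is the DP protein of the worm. It pairs with the E2F protein EFL-1 and, within the DREAM complex, keeps cell cycle genes repressed, and the sites of that complex are known to hold E2F and CHR sequence elements.

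The series held 1 group of 2 biological replicates of ChIP against DPL-1, with no second condition, so no group could be compared with another and no test between conditions was possible. Larvae of both sexes came from strain YL448, which carries unc-119(ed3)III and the transgene vrIs83. In that transgene DPL-1 with a GFP-FLAG tag is expressed from the ges-1 promoter, which is active in the intestine, and followed by the downstream untranslated region of dpl-1, with unc-119(+) on the same insertion. The age of the larvae was given as unknown, and both replicates share this genotype. Chromatin came from whole larvae, so a site bound in few cells and a site bound weakly in many could not be told apart. The antibody was labelled dpl-1 with no epitope, so it was not known whether a peak came from native DPL-1, from the tagged protein or from both. Lists of 30000 peaks, not cut at the IDR threshold explained below, were deposited for each replicate and for the pooled data. Each list ended at that number, the pooled one at a signal of 9.07. A gene said to have no summit in a list thus had none among its 30000 peaks. The list that passed the authors' threshold on the irreproducible discovery rate (IDR), a measure of how well peak ranks repeat, held 3726 peaks on build ce11. Signal is the authors' own value for each peak, on a scale the files did not state, with IDR values from 39.5 to 5289 and a median of 94.0. It differed 5.32-fold between replicates at the median IDR peak, replicate 1 being the higher, so the replicates are set side by side here by rank. Read depth was not given in the lists, so the precision of each value is unknown.

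Promoters ran from 500 bp before any annotated transcript start to 200 bp after it. By this measure ceh genes seldom held a DPL-1 summit. The 4 of 63 made 6.35% (95% exact interval 1.76 to 15.5%), against 2855 of 19973 protein-coding genes, or 14.3%. In the gene body or within 2 kb upstream, 11 of 63 (17.5%, interval 9.05 to 29.1%) had an IDR summit, against 22.7% of all genes. This window grows with the gene, and the median span was 2652 bp for ceh genes and 2027 bp for all genes. Per kb of the window there were 0.0318 IDR summits at ceh genes and 0.0503 at all genes. The intervals cover the counting of genes alone. Both background shares lay within the intervals of the ceh shares, and the differences were not tested.

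**Figure D1:**
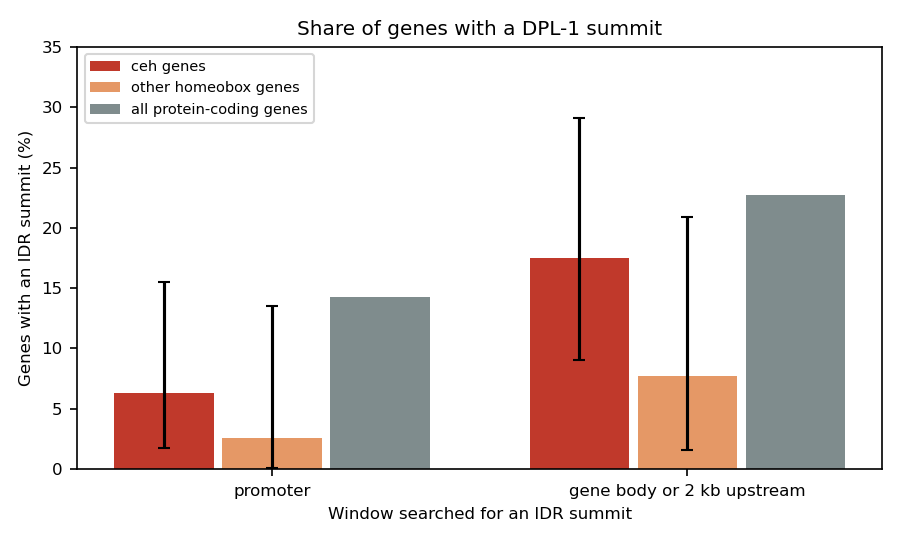
Percentage of genes (vertical axis) with a summit of the IDR list in each of 2 windows (horizontal axis) for ceh genes, homeobox genes of other names and all protein-coding genes; error bars, drawn for both homeobox sets, are exact 95% binomial intervals over genes. The ceh bars, at 6.35 and 17.5%, stand below those of all genes, at 14.3 and 22.7%, and the intervals of the ceh bars reach past those values.

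In genome position ceh genes differed from all genes, and the shares bound are given by position here. Their promoters stand alone more often, since 6 of 63 (9.52%) overlapped the promoter of another protein-coding gene, against 21.9% of all genes. Among genes with a promoter overlapping no other, 3 of 57 ceh genes (5.26%) were bound, against 8.41% of all such genes. Among genes with an overlapping promoter 1 of 6 ceh genes was bound, namely ceh-38, against 35.3%. Chromosome X held 18 of the 63 (28.6%), against 13.7% of all genes. On X, 2 of 18 ceh promoters (11.1%) held an IDR summit, against 8.09% of genes there, and on the autosomes 2 of 45 (4.44%), against 15.3%. In the wider window it was 3 of 18 (16.7%) on X, against 12.7%, and 8 of 45 (17.8%) on the autosomes, against 24.3%. The part of gene position in the low promoter count was not tested.

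The strongest promoter peak of the family was at ceh-38 (WBGene00000459), which codes for a broadly expressed factor of the CUT class, with a cut domain beside its homeodomain. The peak lay at II:6951456-6951681, with its summit 45 bp downstream of the nearest of 11 annotated starts, in an exon. It had a signal of 391 and rank 598 of the IDR list, rank 562 in replicate 1 (signal 354) and rank 756 in replicate 2 (signal 48.1). The same summit lay in the promoter of malt-1, the worm gene for a MALT1-like paracaspase. So the peak could not be given to ceh-38 alone.

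Next came ceh-39 (WBGene00000460), another CUT gene, known in the worm as an X-linked signal element that helps to count X chromosomes by repressing xol-1. Its peak, X:1856152-1856471, had a summit 140 bp upstream of the single annotated start, a signal of 133 and rank 1421. The ranks in the replicates were close, 1503 in replicate 1 (signal 106) and 1517 in replicate 2 (signal 18.7). No other protein-coding promoter held this summit, though the noncoding RNA gene T26C11.10 lay within 200 bp.

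The other bound promoters, of ceh-83 and ceh-93, carried weaker peaks that replicate 2 ranked far lower. At ceh-83 (WBGene00018446, II:1736400-1736719) the summit was 27 bp upstream of a start, with a signal of 65.3 and rank 2474. Replicate 1 placed it at rank 2316 with a signal of 61.3, and replicate 2 at rank 18788 with a signal of 3.25. At ceh-93 (WBGene00019864, X:388802-389121) the summit was 165 bp upstream, with a signal of 57.0 and rank 2805. Its rank was 2800 in replicate 1 (signal 48.5) and 12239 in replicate 2 (signal 4.19). Both peaks were thus much higher in replicate 1, in signal and in rank, and neither was shared with another protein-coding promoter. The median signal of the 4 bound ceh promoters was 99.1, against 154 over all protein-coding genes with a bound promoter, a difference that was not tested. The ceh median was 65.3 without the shared ceh-38 peak and 262 among the stronger 1863 IDR peaks, so it depends on which of the 4 are counted.

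The 30-base sequences below are centred on the summit, except at ceh-20, whose stretch surrounds a CHR string and does not reach the summit. They were read from RefSeq's WBcel235 genome in the direction of each gene and are given 5′ to 3′. The genes ceh-38, ceh-92 and ceh-20 are on the plus strand, and ceh-39, ceh-83 and ceh-93 on the minus strand. A capital marks the summit base, except at ceh-20, where capitals mark the CHR string TTCGAA, 25 bp from the summit.
ceh-38 (II:6951556-6951585): gtgcagggactccaaAgaaatctagatagt
ceh-39 (X:1856297-1856326): ctggtgagcgctcgAcgggcctccccacgg
ceh-83 (II:1736545-1736574): ctgtccaagagagcAcgcaatcagaagagg
ceh-93 (X:388947-388976): aatgcaaccgcgctCcaacacaaacataac
ceh-92 (III:11580696-11580725): gcagaaagtgtgctcTattgataaaatatt
ceh-20 (III:6979107-6979136): tttctctgttgtTTCGAAggaaccgctacg
The strings searched on both strands were, for E2F, TTCCCGC together with TTCGCGC and also TTGGCGC and lastly TTGCCGC, and for CHR either TTTGAA or the palindrome TTCGAA. No string of one kind contains one of the other kind. Within 50 bp of the summit, none of the 4 bound ceh promoters held any of them. Of the 11 summits at ceh genes, 1 held an E2F string, at ceh-8, and 1 a CHR string, at ceh-20. Over all IDR summits E2F strings were found at 15.7% and CHR strings at 28.5%. For the strongest 500 summits, where no ceh peak ranks, these shares were 31.6 and 62.2%.

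Over the whole promoter window the strings were about as frequent at ceh genes as at all genes. In the window of 701 bp at the gene start, E2F strings stood in 13 of 63 ceh genes (20.6%), against 19.5% of all genes and 30.3% of bound ones. CHR strings, which are short, stood in 57 of 63 (90.5%), against 92.4% of all genes and 92.2% of bound ones. Of the bound ceh promoters, those of ceh-39 and ceh-83 held an E2F string in this window and those of ceh-38 and ceh-93 did not. A match is a description of the letters and not a mapped site.

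Outside promoters the strongest IDR peak beside a ceh gene was near ceh-92 (WBGene00013431), at III:11580609-11580830, with a signal of 454 and rank 529. It also ranked high in replicate 1 (537, signal 371) and replicate 2 (490, signal 84.7). Its summit lay 889 bp upstream of ceh-92 but 233 bp upstream of the start of Y66D12A.7, in whose promoter it falls. The peak closest to ceh-91, on the same chromosome, was this one too, 36035 bp from its start.

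At ceh-20 (WBGene00000443), the worm's Pbx and Extradenticle counterpart and a partner of Hox proteins, the peak III:6978937-6979256 lay 787 bp upstream of the start and in no protein-coding promoter. Its signal was 104 with rank 1716, and the replicates ranked it 1720 (replicate 1, signal 88.7) and 1778 (replicate 2, signal 15.4). The nearest protein-coding start was that of ceh-20 itself. With promoters reaching 1000 bp upstream, ceh-20 was counted as bound, and so were ceh-92 and ceh-100.

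The remaining wider peaks were weaker. The ceh-5 peak, with a signal of 85.9 and rank 2006, lay 1722 bp upstream of that NK-like gene, and no other protein-coding start was nearer. The ceh-8 peak (signal 90.6, rank 1914) fell in an exon of this retinal homeobox (Rax) counterpart, 1296 bp downstream of its nearest start, and 708 bp upstream of the collagen gene col-63. The ceh-21 peak (X:1853618-1853937, signal 56.8, rank 2812) lay 1042 bp upstream of that CUT gene and in the promoter of T26C11.9. The ceh-88 peak (IV:17331189-17331508, signal 51.4, rank 3027) lay in an exon, 2161 bp downstream of the ceh-88 start and 178 bp upstream of C49C3.6. The ceh-100 peak (II:12604268-12604587, signal 82.7, rank 2064) lay 748 bp upstream of ceh-100 and in the promoter of lips-15, named as a lipase-related gene. So 4 of these 7 summits lay in the promoter of another gene, and 3, at ceh-5, ceh-8 and ceh-20, lay in no promoter of a protein-coding gene, though the noncoding RNA gene ZK265.11 lay within 200 bp of the ceh-8 summit. Placed against their ceh gene alone, 8 of all 11 summits were upstream, 3 in an exon and 0 in an intron. The 3 genes with a summit in the gene body made 4.76%, against 4.1% of all genes. Exon and intron shares over all genes were not worked out.

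All 11 peaks had a counterpart within 100 bp in each replicate's list. Of all IDR peaks, 99.5% had one in replicate 1 and 87.1% in replicate 2. The replicates differed in how high they ranked the 11 peaks. Among the 3726 strongest peaks of each replicate, replicate 1 held 11 of the 11, against 95.5% of all IDR peaks, and replicate 2 held 7 of the 11, against 70.6%. The 4 outside that range in replicate 2 were ceh-83, ceh-93, ceh-88 and ceh-100. At these 4 the signal of replicate 1 was 11.6 to 18.9 times that of replicate 2, above the 90th percentile of all IDR peaks (10.7). At the other 7 it was 3.18 to 7.36 times as high. The IDR list was made from these replicates, so a match is in part built in. Of the bound promoters, ceh-38 and ceh-39 thus had high ranks in both replicates, and ceh-83 and ceh-93 in replicate 1 alone.

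**Figure D2:**
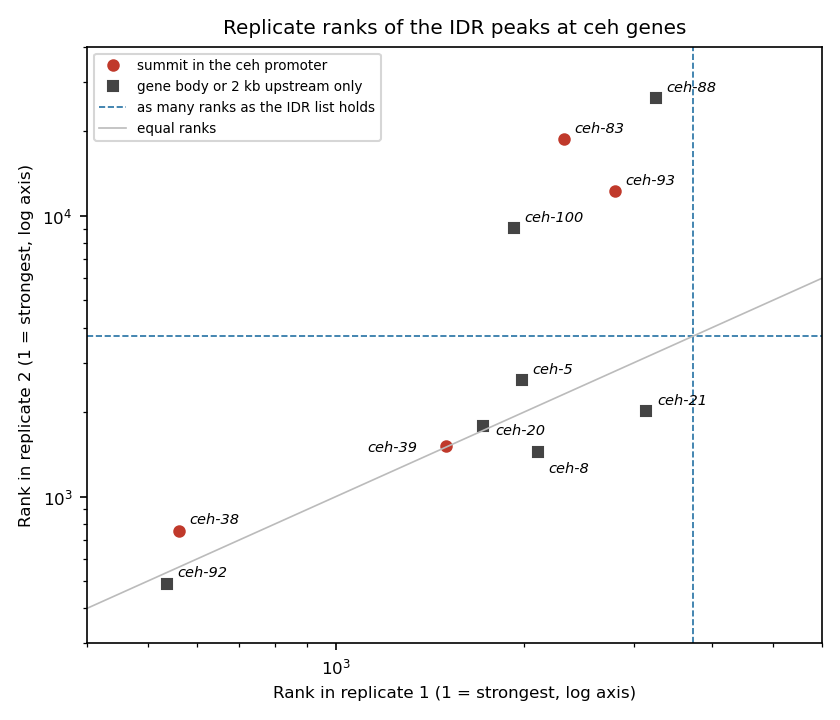
Rank in replicate 1 (horizontal, log axis) and replicate 2 (vertical, log axis) of the 11 IDR peaks at ceh genes, with dashed lines at rank 3726 and a grey line for equal ranks. The peaks of ceh-83, ceh-93, ceh-88 and ceh-100 lie above the horizontal dashed line, at ranks 9038 to 26357 in replicate 2, and the other 7 lie below it.

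By homeobox class the IDR peaks were spread thinly, with CUT genes holding 2 of the 4 bound promoters. Over all genes the shares bound were 14.3% at the promoter and 22.7% in the wider window. Differences between classes were not tested. Of 6 CUT genes, 2 were bound at the promoter (ceh-38 and ceh-39) and 3 in the wider window (with ceh-21). The ceh-38 summit also lay in the malt-1 promoter, and the ceh-21 summit in that of T26C11.9. The CUT genes ceh-41, ceh-48 and ceh-49 had no IDR summit in either window. Of 16 genes grouped here as NK-like, a group that includes the pharyngeal muscle regulator ceh-22, the engrailed counterpart ceh-16 and the Distal-less counterpart ceh-43, 0 were bound at the promoter and 1 (ceh-5) in the wider window. Of 6 paired-like genes, among them the Otx counterparts ceh-36 and ceh-37 of sensory neurons, 0 were bound at the promoter and 1 (ceh-8) in the wider window. The PBC genes had 0 of 3 and 1 of 3 (ceh-20). The sine oculis-type genes (ceh-32, ceh-33, ceh-34), the POU genes (ceh-6, ceh-18), the LIM gene ceh-14 and the Hox gene ceh-13, counterpart of labial, had none in either window. Among the 25 members not put in a class, 2 were bound at the promoter and 5 in the wider window.

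The 3 neighbouring CUT genes of chromosome X showed how unevenly peaks fell within 1 locus. These genes, ceh-39, ceh-21 and ceh-41, lie in this order in the same direction, with T26C11.9 between ceh-39 and ceh-21. The ceh-39 promoter held the peak with signal 133, and the peak with signal 56.8 stood 2394 bp downstream of the ceh-39 start, within T26C11.9. Between the starts of ceh-21 and ceh-41 there were pooled peaks only below the IDR threshold, with signals of 9.18 and 17.9. Beyond ceh-41 an IDR peak with a signal of 188 and rank 1080 stood 10495 bp downstream of the ceh-39 start, beside the start of T26C11.4. On the other side, at -2610 bp from the ceh-39 start, lay an IDR peak with a signal of 44.6 and rank 3389.

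**Figure D3:**
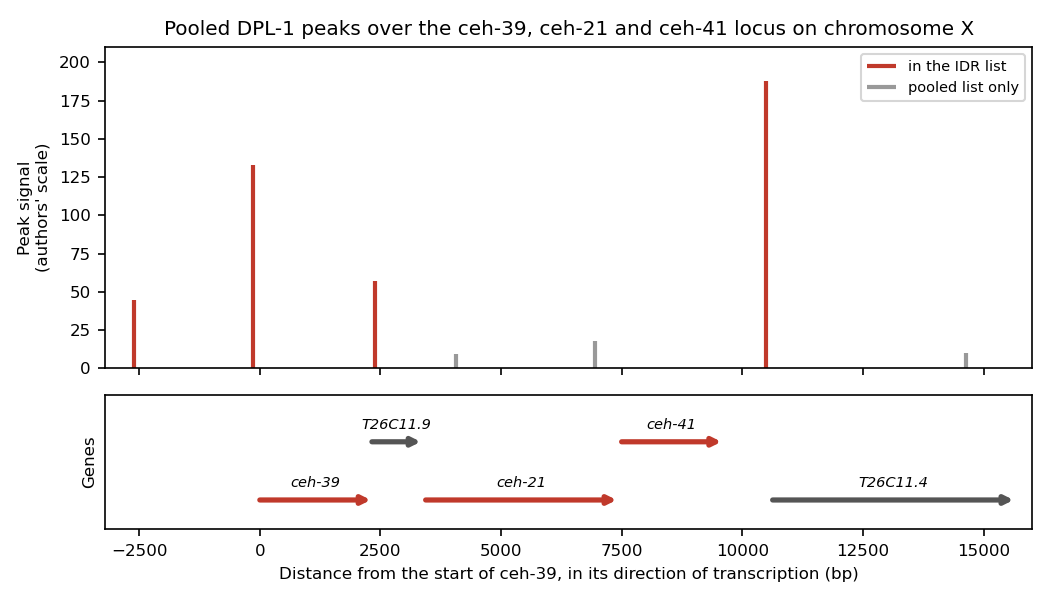
Signal of pooled DPL-1 peaks (upper panel, vertical axis on the authors' scale) by distance in bp from the ceh-39 start in its direction of transcription, with genes as arrows in the lower panel. Peaks of the IDR list stand at -2610, -140, 2394 and 10495 bp, and none of them lies between the starts of ceh-21 and ceh-41.

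In the pooled list without a threshold, promoter summits were found at 22 of 63 ceh genes (34.9%), against 37.7% of all genes, and wider summits at 45 of 63 (71.4%), against 69.9%. The 18 ceh promoters with a pooled summit below the IDR threshold had ranks from 3795 to 28287, with a median of 18356.5, and signals from 9.40 to 38.5. Closest to the threshold was ceh-100, at rank 3795 with a signal of 38.5, where the lowest IDR signal was 39.5. That promoter peak ranked 4478 in replicate 1 and 3128 in replicate 2. Further down came ceh-79 (signal 22.4, rank 6268), ceh-74 (signal 18.6, rank 8070) and the engrailed counterpart ceh-16 (rank 9290). None of these 3 had a summit in the promoter in the list of replicate 2. Of the 18 summits, 12 had a counterpart in replicate 1 (66.7%) and 2 in replicate 2 (11.1%), against 74.6 and 29.5% of all such promoter summits below the threshold.

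Taken by replicate, promoter summits of the full lists were present at 21 of 63 ceh genes (33.3%) in replicate 1, against 37.6% of all genes, and at 12 of 63 (19%) in replicate 2, against 34.6%. They were present in both for 5 genes, which were ceh-38, ceh-39, ceh-83, ceh-93 and ceh-100. The share of all genes with a promoter summit in both was not worked out, so this count stands without a background.

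**Figure D4:**
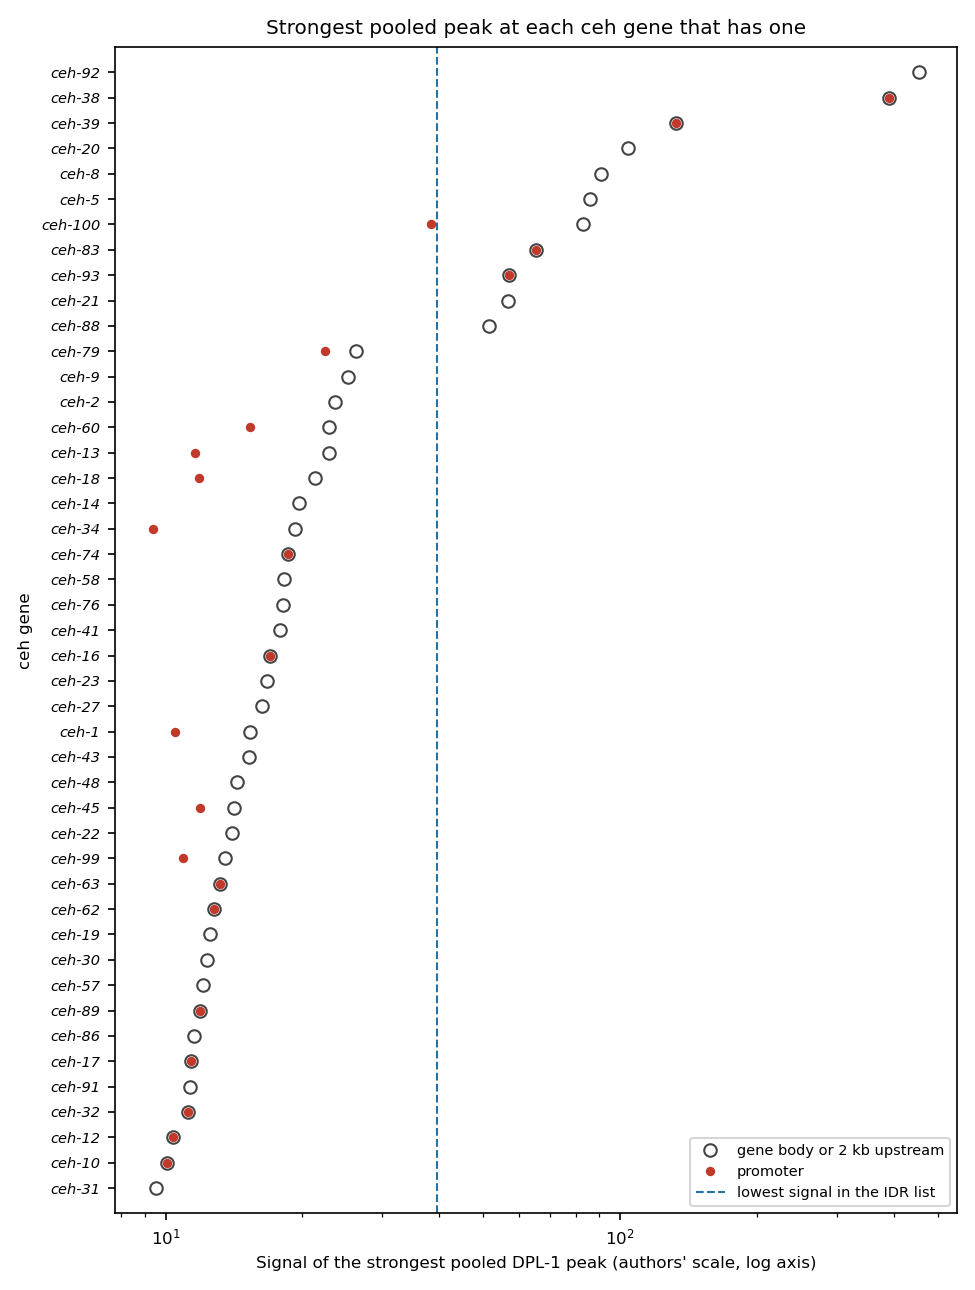
Signal of the strongest pooled peak (horizontal, log axis, authors' scale) for the 45 ceh genes (vertical axis) with a summit in the gene body or within 2 kb upstream; open circles are that window, filled circles the promoter, and the dashed line is the lowest IDR signal, 39.5. The 11 genes from ceh-92 to ceh-88 lie to the right of the line in the wider window, and the next, ceh-79, lies at 26.3.

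When each gene was taken by its strongest wider peak, ceh-88, with a signal of 51.4, was the last above the threshold and ceh-79, with 26.3, the first below it. The promoter peak of ceh-100, with 38.5, lay between these values but was not the strongest peak of that gene. The 34 genes whose strongest wider peak missed the threshold had a median signal of 14.8 and ranks from 5308 to 27569. They included ceh-60, the PBC gene known for its part in yolk protein production (signal 22.8), ceh-13 (signal 22.8), ceh-18 (signal 21.3), ceh-34 (signal 19.2), ceh-43 (signal 15.3) and the neuronal CUT gene ceh-48 (signal 14.3). The remaining 18 had no pooled summit in that window. Among these were ceh-6, ceh-24, ceh-28, ceh-33, ceh-36, ceh-37, ceh-40, ceh-49 and ceh-51. Of those named, only ceh-28 and ceh-33 also had no summit there in either replicate's list. The summit at ceh-40 had rank 3434 in replicate 1 (signal 38.1) and that at ceh-24 rank 4288 in replicate 2 (signal 7.1), each in that replicate alone.

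The distance from the start of a ceh gene to the nearest IDR summit anywhere had a median of 10.2 kb (quartiles 5.07 and 20.9 kb), against 9.27 kb (quartiles 2.47 and 23.5 kb) over all genes. It exceeded 10 kb at 33 of 63 ceh genes (52.4%), against 48.1% of all genes. The longest distance among the members was 42.4 kb, at the PBC gene ceh-40. Clustered genes shared a nearest peak, as ceh-83, ceh-82 and ceh-81 did on chromosome II, where the ceh-83 promoter peak stood 27, 4328 and 6157 bp from their starts.

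Homeobox genes with other names, such as the Hox genes lin-39 and mab-5 and the neuronal regulators unc-86, mec-3 and ttx-3, held an IDR summit in 1 of 39 promoters (2.56%, with an exact 95% interval of 0.0649 to 13.5%), beside 14.3% of all genes. The bound gene was duxl-1 (II:1663588-1663907), with a summit 49 bp downstream of its start, a signal of 48.4 and rank 3188. Its peak had rank 2819 in replicate 1 and no match in replicate 2. In the wider window 3 of 39 (7.69%, interval 1.62 to 20.9%) had an IDR summit, against 22.7% of all genes, a difference that was not tested. The others were unc-62, the Meis and Homothorax counterpart (signal 67.6, rank 2415), and hmbx-1, the HMBOX1 counterpart (signal 39.7, rank 3707). No Hox gene of either list had an IDR summit in a window.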

How the data were processed

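ChIP-seq against DPL-1 was made on whole L1 larvae in 2 biological replicates, placed in 1 group by their labels. NarrowPeak lists were deposited on ce10 and on ce11. The deposited file descriptions derive the replicate and pooled lists from alignments, and the IDR list from these. Names and versions of aligner and caller are not given in the sources used here. Signal, as deposited by the authors for each peak, is on an unstated scale. The -log10 q that the authors deposited was not used to rank. The ce10 lists were not used, since the annotation was Ensembl release 115 on WBcel235 (ce11).

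The 12 mitochondrial protein-coding genes were left out. Peaks were ranked by signal and placed by summit. A peak's counterpart in another list was the strongest with a summit within 100 bp. Members, classes (from general knowledge of the genes), other homeobox genes and strings were chosen with earlier results of these data known. Named genes were every bound ceh promoter and up to 10 with a wider summit only, and ceh genes below the IDR threshold were named after their values were seen. The CUT gene ceh-44 is not a symbol of that annotation and was not a member. Shares have exact Clopper-Pearson 95% intervals, and no hypothesis test was run. The code was tested on simulated data. Alternatives covered stricter lists, single replicates, other windows and other matching rules. Versions were matplotlib 3.10.9, pandas 2.3.3, scipy 1.17.1, numpy 2.4.6 and Python 3.11.15.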

Additional observations from a re-analysis of the deposited data

How the results depend on the processing

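The count of 4 bound ceh promoters became 2 among the stronger 1863 IDR peaks (9.37% of all genes) and 7 with promoters from 1000 bp upstream (17.3% of all genes), and in both the ceh share, 3.17 and 11.1%, stayed below that of all genes. With a replicate left out there was no IDR threshold, and the ceh genes counted had a summit among the 3726 strongest peaks of the other replicate. Leaving out each replicate in this way gave 3 to 4 (4.76%, against 12.8%, without replicate 1, and 6.35%, against 14.3%, without replicate 2): without replicate 1 ceh-83 and ceh-93 were lost and ceh-100 was gained. It was 4 by overlap of peak intervals (6.35%, against 15.3%), 5 by nearest start (7.94%, against 13%) and 3 on promoters that overlap no other (5.26%, against 8.41%). The count of 11 in the wider window became 4 among the stronger peaks (6.35%, against 14.2% of all genes), 3 in the gene body alone (4.76%, against 4.1%) and 6 without summits in promoters of other genes (9.52%, against 12.6%). It was 8 to 12 on leaving out each replicate (12.7%, against 21.8% of all genes, without replicate 1, and 19%, against 22.7%, without replicate 2), 11 by overlap (17.5%, against 23.8%) and 13 with 5 kb upstream (20.6%, against 30.8%). Without replicate 1 ceh-83, ceh-88 and ceh-93 were lost, and without replicate 2 ceh-40 was gained. Counting promoter summits of every transcript start in the wider window, a choice made after the data were seen, left 11. The 1 of 39 other homeobox promoters became 0 of 39 among the stronger peaks (against 9.37% of all genes). On promoters that overlap no other it was 0 of 38 (against 8.41%). It was 2 of 39 (5.13%) by overlap, against 15.3%, and from 1000 bp upstream, against 17.3%. By nearest start it was 3 of 39 (7.69%, against 13%). It was 0 without replicate 1 (against 12.8%) and 1 without replicate 2 (2.56%, against 14.3%). The median signal of bound ceh promoters, 99.1, became 262 among the stronger peaks and 65.3 without peaks shared with another promoter. Of the 4 promoter peaks matched in both replicates, 2 were among the strongest peaks of each, and of the 7 wider peaks 5 were. Of all IDR peaks, 67.7% were among the strongest of both. Other matching rules left the counts of matched peaks at 4 and 7. The cause of the changed values was not tested, beyond the fewer peaks or narrower windows that define them. No paired analysis was possible because there was 1 group. Read depth was not given in the lists, so its effect on weak peaks was not tested.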
